A study of Mus musculus with 3 samples.

Results

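Imprinted genes, which are transcribed mainly from the copy inherited from 1 parent, were followed in the genital tubercle of mouse embryos, the outgrowth that becomes the penis or the clitoris. The members were a list of 42 genes known to be imprinted in the mouse, chosen by name, and every probe set annotated to exactly 1 of their symbols was used. A probe set is a group of short probes on the array that reads 1 transcript or a part of it. In all, 38 of the 42 genes had such a probe set, with 102 probe sets between them, out of 18193 genes measured. H19, Nespas, Zrsr1 and Dio3 had none and were not analysed here. Snrpn had 1 probe set of its own, while 6 annotated to several symbols were not used.

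The series holds 3 samples in 1 group, each the tubercle of an unpooled embryo of embryonic day 14 (Theiler stage 22) with a male label, from FVB/N females mated to males carrying a SMAA/EYFP transgene. This reporter is named for smooth muscle actin (Acta2) and a yellow fluorescent protein, was carried by every sample and guided the dissection. There was no treatment, mutant or control. The samples differ in 1 label, the limb landmark, which in replicate 3 is the presence of individual fingers and in replicates 1 and 2 an indented footplate border. Nothing says whether the embryos shared a litter, so a difference between samples can come from the animal, the dissection or the handling of its RNA, and these cannot be told apart.

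Imprinting is set in the germ line by DNA methylation that differs between egg and sperm and is kept in the body after fertilisation. Many imprinted genes lie in clusters in which a control region governs several neighbours, often through a long non-coding RNA that silences genes beside it on the same chromosome. Several paternally expressed genes, such as Igf2, promote growth before birth, and several maternally expressed genes, such as Igf2r, Grb10 and Cdkn1c, restrain it. The array reads total RNA and cannot tell which parental copy it came from. The grouping by expressed allele and by growth role is therefore textbook knowledge, not a measurement. A gene listed as maternally or paternally expressed may also be imprinted in some tissues only. Its class does not say which copy was read in the tubercle.

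Levels are the deposited signals, and a probe set was called above background when it exceeded the 95th percentile of 83 probe sets of sensory receptors in that sample. That background was 134.8, 251.3 and 197.3 signal units in replicates 1, 2 and 3. Probes bind with different strength, so signals are compared between samples for 1 probe set and not between genes. Precision is limited by the number of arrays. Replicate 3 goes against its male label, with the X inactivation RNA Xist at 61883, against 8.05 and 118 in replicates 1 and 2, and the Y-linked Eif2s3y at 37.9, against 4384 and 3738. The counts of genes above background and of genes with an over 2-fold range are also given without it. Medians by class, ranges of single genes, counts of probe sets and the limma fits include it. Of 10 tubercle mesenchyme genes, among them Isl1 and Hoxd13, 9 were above background in every sample. Genes of other tissues differed between samples. The 7 liver genes measured summed to 113801.7, 52302.5 and 9260.5 signal units in replicates 1, 2 and 3, and the 15 skeletal muscle genes to 29441.5, 9389.7 and 3871.1. Control probe sets at both ends of the Actb transcript gave a 3′ to 5′ signal ratio of 7.4, 2.2 and 4.4, and those of Gapdh 21.5, 14.9 and 14.1, a common measure of how far copying reached along the transcript.

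Most imprinted genes were transcribed in the tubercle. The brightest probe set, that with the highest mean signal, was above background in every sample for 30 of the 38 genes, where 60.6% of all genes measured were. A further 5 genes were above it in some samples, and 3 (Ascl2, Kcnq1 and Snrpn) in none. By listed class, 14 of 18 genes listed as paternally expressed and 12 of 16 listed as maternally expressed were above background in every sample. So were 4 of 4 listed as depending on tissue or transcript. At the level of probe sets, 62 of the 102 were, where 53.7% of all with 1 symbol were. Without replicate 3 the count of genes was again 30 of 38, where 62.3% of all genes were. When every probe set of a gene had to pass, 14 of 38 genes did. That rule is harder to pass for genes with many probe sets, such as Meg3 with 11, and no share over all genes is given for it. The plot of signals by gene and sample shows how closely the samples lay.

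**Figure D1:**
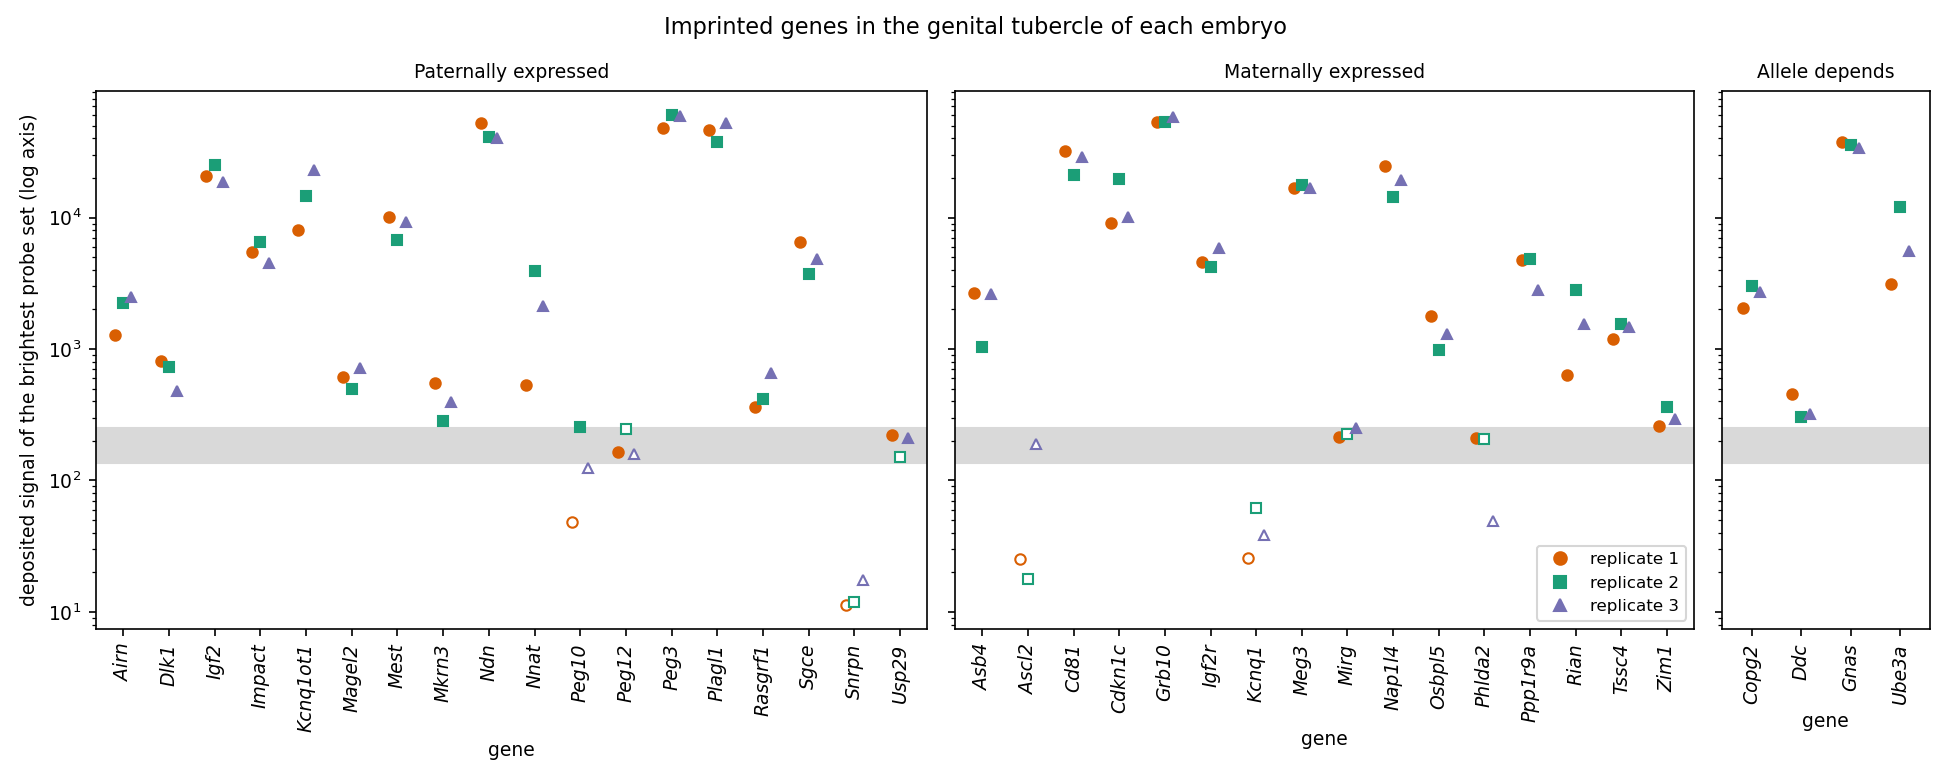
Deposited signal (log axis) of the brightest probe set of each of the 38 imprinted genes measured, in replicates 1, 2 and 3, grouped by expressed allele; each point is 1 sample, open points are not above background, and the grey band spans the samples' backgrounds from 134.8 to 251.3. Peg3, Grb10 and Meg3 have nearly overlapping points, whereas Nnat, Rian and Ube3a are lowest in replicate 1 and highest in replicate 2.

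Among the growth promoters 6 of 7 were above background in every sample. Igf2, the fetal growth factor ligand of the insulin family, read 20744, 25053 and 18626 in replicates 1, 2 and 3. Its samples lay within 1.22-fold of each other after the samples were aligned on a common median (SD 0.16 on the log2 scale, n = 3). Plagl1, a zinc finger transcription factor, read 46041, 37449 and 52206, and Peg3, another zinc finger protein gene whose loss makes mouse pups small, read 47657, 59817 and 59313. These stayed within 1.53-fold and 1.17-fold. Mest, which encodes a hydrolase-like membrane protein, was lowest in replicate 2 (10129, 6718 and 9201, SD 0.42). Dlk1, a membrane protein related to Notch ligands, was lowest in replicate 3 (807, 727 and 479, SD 0.42). Rasgrf1, an exchange factor that activates Ras, was highest in replicate 3 (363, 415 and 662, SD 0.46). For Peg10, a gene derived from a retrotransposon and needed for placenta formation, the probe set read 48.3, 256 and 124. It was near background, with replicate 2 alone above it, at 256 against 251.3.

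Of the growth inhibitors 3 of 4 measured were above background in every sample. Grb10, an adaptor that dampens signalling from the insulin and Igf1 receptors, read 53125, 53093 and 58531 in replicates 1, 2 and 3, within 1.21-fold. Igf2r, the receptor that takes Igf2 to the lysosome for breakdown, read 4600.4, 4239.5 and 5839 and also stayed within 1.52-fold of each other. Cdkn1c, the cyclin-dependent kinase inhibitor p57, was higher in replicate 2 than in the others (9168, 19703 and 10145, SD 0.49), with a 1.83-fold range. Phlda2, which limits growth of the placenta, read 209, 206 and 49, with replicate 1 alone above background. Its level in replicate 1 was at least 1.13-fold that in replicate 3.

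The remaining paternally expressed genes included non-coding RNAs, MAGE family proteins and genes known mostly from the brain. Ndn, a MAGE family protein that restrains the cell cycle in neurons, read 52816, 40865 and 40647, within 1.51-fold, and its neighbour Magel2 614, 498 and 713. Mkrn3, a RING finger protein gene known for its part in the timing of puberty, was highest in replicate 1 and lowest in replicate 2 (551, 283 and 398). Impact, a regulator of translation under stress, read 5482, 6476 and 4500.0 on its brightest probe set. Airn, the non-coding RNA that silences Igf2r on the paternal chromosome, read 1267, 2225 and 2494 and was lowest in replicate 1. Sgce, a sarcoglycan, was highest there (6512, 3705 and 4824). Usp29, which shares its start region with Peg3, was near background (223, 151 and 209, above it in replicates 1 and 3), as was Peg12 (164, 248 and 159, above it in replicate 1 alone).

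Among the other maternally expressed genes, Meg3, the long non-coding RNA of the Dlk1 cluster, had the closest samples, at 16889, 17653 and 16735 in replicates 1, 2 and 3, within 1.12-fold (SD 0.08). Mirg, a non-coding RNA of the same cluster that hosts microRNAs, was near background (215, 224 and 249, above it in replicates 1 and 3). The tetraspanin gene Cd81 (32145, 21215 and 28708), Nap1l4, of a histone chaperone family (24657, 14272 and 19317), and Osbpl5, of a family of oxysterol-binding proteins (1792, 984 and 1292), were all highest in replicate 1 and lowest in replicate 2. Tssc4, in the same cluster, read 1184, 1537 and 1466, within 1.16-fold. The actin-binding neurabin gene Ppp1r9a was lowest in replicate 3 (4737, 4805 and 2812) and the zinc finger gene Zim1 lay just above background throughout (258, 362 and 296). Asb4, a substrate adaptor with a SOCS box, was low in replicate 2 (2648, 1034 and 2622).

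Of the genes whose expressed allele depends on the tissue or transcript, Gnas, the stimulatory G protein subunit, read 37310.3, 35555 and 33751 on its brightest probe set, within 1.23-fold. Copg2, a coat protein of Golgi vesicles, read 2041, 3042 and 2729, and Ddc, the decarboxylase of dopamine and serotonin synthesis, 458, 306 and 318. Ube3a, a ubiquitin ligase expressed from the maternal copy in neurons, differed more, at 3144, 12099.9 and 5521.

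On brightest probe sets above background in every sample, the largest ranges were those of Nnat, Rian, Ube3a, Asb4 and Kcnq1ot1. Nnat, which encodes a small membrane protein of the endoplasmic reticulum, read 531 in replicate 1, against 3917 and 2109 in replicates 2 and 3. Rian, a maternally expressed non-coding RNA that hosts small nucleolar RNAs, read 635 in replicate 1, against 2792 and 1557. Kcnq1ot1, the paternally expressed non-coding RNA that silences Cdkn1c and its neighbours, read 8083 in replicate 1, against 14596 and 22859.9. On these probe sets all 3 genes, and Ube3a, were lowest in replicate 1. Nnat, Rian and Ube3a were highest in replicate 2, and Kcnq1ot1 in replicate 3. Dimmer probe sets of Ube3a and Rian above background in every sample did not all show this. Those of Ube3a read 1185, 1268 and 1308 in replicates 1, 2 and 3, then 797, 828 and 1954, and 146, 478 and 478. Those of Rian read 403, 1106 and 629, and 468, 512 and 741.

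As log2 difference from the mean of the other samples, replicate 1 was at -2.28 ± 0.56 for Nnat, -1.56 ± 0.55 for Rian, -1.22 ± 0.62 for Ube3a and -1.02 ± 0.57 for Kcnq1ot1 (SE from limma, which pools variance over all probe sets). Replicate 2 was at 1.70, 1.31 and 1.36 for Nnat, Rian and Ube3a, and at -1.53 for Asb4. The adjusted p for replicate 1 was 0.267 for Nnat, 0.408 for Rian, 0.587 for Ube3a and 0.629 for Kcnq1ot1, so none passed. These directions held without alignment, with quantile normalization and with 16 added to each signal. Without replicate 2 the replicate 1 value of Ube3a was -0.72, and without replicate 3 that of Kcnq1ot1 was -0.62. Without replicate 1 the replicate 2 values of Nnat and Rian were 0.75 and 0.70. With the mean of all their probe sets, replicate 1 was at -0.90 for Rian and -0.81 for Ube3a, and replicate 2 at 0.27 for Ube3a and -0.76 for Asb4. Of 30 genes above background in every sample, 4 were over 2-fold lower in replicate 1, where 2.68% of all such genes were, and 0 were over 2-fold higher, against 3.83%. In replicate 2, 3 were over 2-fold higher, against 2.04%, and 1 over 2-fold lower, against 4.52%. In replicate 3, 1 (Kcnq1ot1) was over 2-fold higher, against 1.78%, and 0 lower, against 2.23%.

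Highest over lowest sample exceeded 2-fold for 9 of the 30 genes, where 19.5% of all genes did. Besides the 5 named, these were Mkrn3 (2.28-fold), Osbpl5 (2.13-fold), Sgce (2.06-fold) and Nap1l4 (2.02-fold), which were all highest in replicate 1 and lowest in replicate 2. The median log2 difference over all genes lay in the same directions, at 0.26 in replicate 1 and -0.21 in replicate 2. The count depended most on replicates 1 and 2. Without replicate 1, 1 of 30 genes (Asb4) exceeded 2-fold, where 7.27% of all genes did. The count was 3 without replicate 2, against 7.68%, and 8 without replicate 3, against 12.3%. A range cannot grow when a sample is left out, and the share over all genes fell each time as well. The median SD of the 30 genes was 0.42 on the log2 scale, against 0.33 over all genes above background in every sample. The plot of log2 differences shows the genes at the ends and the cluster in between.

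**Figure D2:**
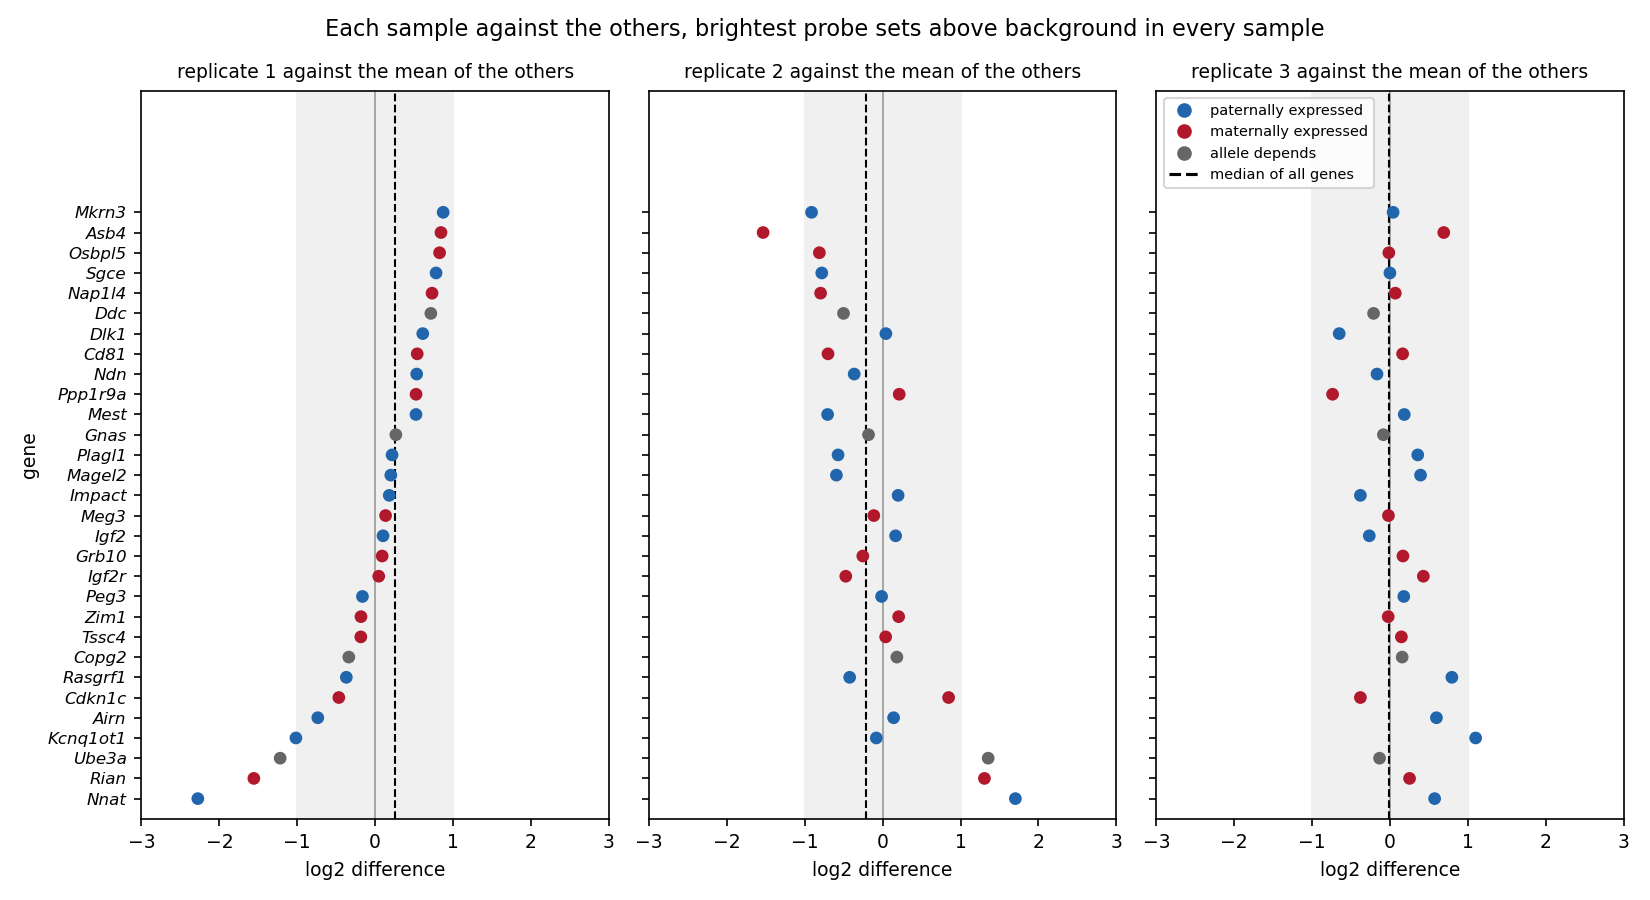
Log2 difference of each sample from the mean of the others for the 30 imprinted genes above background in every sample, ordered by replicate 1, coloured by expressed allele. The dashed line is the median of all genes (0.26, -0.21 and -0.01 in replicates 1, 2 and 3) and the shaded band spans 2-fold either way. Nnat (-2.28), Rian, Ube3a and Kcnq1ot1 lie left of the band in replicate 1.

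The start regions of 4 of these genes are shown because CpG dinucleotides, the sites of imprinted methylation, differ widely between them. Each runs from 250 bases before to 50 after the RefSeq start in build GRCm38.p6, and Peg3 is added for its dimmer probe sets, described further on. CpG dinucleotides are in capitals. The windows are chr2:157559828-157560127 (plus strand) for Nnat, chr12:109603695-109603994 (plus) for Rian, chr7:59228500-59228799 (plus) for Ube3a, chr7:143296498-143296797 (minus) for Kcnq1ot1 and chr7:6730370-6730669 (minus) for Peg3.
Nnat: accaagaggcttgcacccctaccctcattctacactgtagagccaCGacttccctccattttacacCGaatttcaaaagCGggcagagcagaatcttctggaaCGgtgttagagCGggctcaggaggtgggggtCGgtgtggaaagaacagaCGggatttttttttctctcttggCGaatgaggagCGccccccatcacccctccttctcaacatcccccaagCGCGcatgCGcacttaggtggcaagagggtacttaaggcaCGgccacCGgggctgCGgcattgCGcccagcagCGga
Rian: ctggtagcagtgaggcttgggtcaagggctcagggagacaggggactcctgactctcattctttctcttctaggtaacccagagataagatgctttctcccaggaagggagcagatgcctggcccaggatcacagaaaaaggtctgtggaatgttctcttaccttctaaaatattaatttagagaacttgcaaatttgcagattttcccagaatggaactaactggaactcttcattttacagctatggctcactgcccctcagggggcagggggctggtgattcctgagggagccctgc
Ube3a: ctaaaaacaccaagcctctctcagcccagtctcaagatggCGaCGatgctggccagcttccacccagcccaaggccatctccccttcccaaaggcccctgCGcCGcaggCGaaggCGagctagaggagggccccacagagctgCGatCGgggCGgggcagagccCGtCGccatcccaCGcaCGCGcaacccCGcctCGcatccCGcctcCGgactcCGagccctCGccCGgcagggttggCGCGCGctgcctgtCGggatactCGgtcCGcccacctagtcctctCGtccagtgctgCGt
Kcnq1ot1: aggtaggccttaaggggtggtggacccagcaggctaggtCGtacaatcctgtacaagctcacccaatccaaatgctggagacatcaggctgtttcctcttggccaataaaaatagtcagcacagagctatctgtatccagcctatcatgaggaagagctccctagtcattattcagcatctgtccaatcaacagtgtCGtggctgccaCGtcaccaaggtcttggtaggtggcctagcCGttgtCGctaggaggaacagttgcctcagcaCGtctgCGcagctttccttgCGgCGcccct
Peg3: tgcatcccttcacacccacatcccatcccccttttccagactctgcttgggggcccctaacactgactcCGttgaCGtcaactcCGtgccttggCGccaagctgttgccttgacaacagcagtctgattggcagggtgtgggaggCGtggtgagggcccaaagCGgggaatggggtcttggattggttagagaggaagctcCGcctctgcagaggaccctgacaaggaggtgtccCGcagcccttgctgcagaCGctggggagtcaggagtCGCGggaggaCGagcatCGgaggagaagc
There are 17 CpG in the Nnat window, 0 in that of Rian, 29 in that of Ube3a, 9 in that of Kcnq1ot1 and 13 in that of Peg3. The 52 windows of the 34 genes on the list that the sequence table holds had a median of 13.5, against 7 over all 32851 windows. The letters TGCCGC, the methylated motif bound by the imprint-keeping protein Zfp57, or their reverse complement GCGGCA were found in 11 of the 52 windows and in 11.6% of all windows. Among the 5 shown, the Nnat window held 1 and the others 0. The listed windows thus held a match in 21.2%, but some of them overlap, as those of Mest with a match do. The letters themselves hold a CpG, of which the listed windows had a higher median. A match describes the sequence without showing a bound site. The window of Peg3 overlaps that of Usp29, which starts in the opposite direction.

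The landmark contrast asked whether replicate 3, with visible fingers, differed from replicates 1 and 2. Kcnq1ot1 read 22859.9 in replicate 3, against 8083 and 14596 in replicates 1 and 2, a log2 difference of 1.10 ± 0.66 (SE). On brightest probe sets Igf2 was at -0.27 ± 0.60, Rasgrf1 at 0.79 ± 0.60, Airn at 0.60 ± 0.65 and Ppp1r9a at -0.74 ± 0.61. Over all their probe sets above background in every sample, Airn ran from -0.585 to 0.595 and Ppp1r9a from -0.738 to 0.367. The second probe set of Igf2 read 9926 in replicate 3, against 4799 and 5382, a difference of 0.99 ± 0.60, opposite in sign to the brightest. The limma fit took the 29121 probe sets that some sample had above background, and 0 of the 84 imprinted ones among them passed a Benjamini-Hochberg adjusted p of 0.05, as did 0 of all probe sets (0%). Over all probe sets 611 had an unadjusted p under 0.05. Among the 62 imprinted probe sets above background in every sample 1 did when only such probe sets were fitted, where 1.08% of all did. It was a dimmer one of Kcnq1ot1, which was 1.93 ± 0.70 higher in replicate 3, where 0.633% of all were higher and 0.452% lower. The fit has 1 residual degree of freedom and takes replicate 3 to vary like the others. The landmark and the sex signal of replicate 3 cannot be told apart.

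The same fit with each other sample alone called 0 of 84 imprinted probe sets and 0% of all probe sets at an adjusted p of 0.05, for replicate 1 and for replicate 2. Over all probe sets 3311 and 1473 had an unadjusted p under 0.05 for replicates 1 and 2. The outcome for replicate 1 depended on which probe sets entered, and in each of these fits the arm is 1 array with no spread of its own, so that the spread comes from the other pair and from pooling over probe sets. With only probe sets above background in every sample, 13 of 62 imprinted ones had an unadjusted p under 0.05 for replicate 1, where 12.9% of all did, and all 13 were lower, where 10.3% of all were lower and 2.64% higher. For replicate 2 there were 6 of 62, against 6.38%, of which 5 were higher, against 4.12%, and 1 lower, against 2.25%. After adjustment in that fit, limma passed 4 of 62 for replicate 1, against 2.35% of all, each lower there. They were a second probe set of Gnas (-2.94, adjusted p = 0.00972), one of Peg3 (-2.19, adjusted p = 0.0245), that of Nnat (-2.28, adjusted p = 0.0262) and one of Kcnq1ot1 (-1.99, adjusted p = 0.0376). With a variance trend limma passed 3, those of Gnas (adjusted p = 0.0147), Nnat (adjusted p = 0.0384) and Peg3 (adjusted p = 0.0393), against 1.9% of all.

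Within a gene, dimmer probe sets often lay lower in replicate 1 than the brightest did, relative to the other samples. The brightest probe set of Peg3 was within 1.17-fold, but 2 others read 1839 and 307 in replicate 1, against 7545 and 1501 in replicate 2 and 6307 and 1632 in replicate 3. The log2 differences of replicate 1 were -1.75 and -2.19 there, and -0.16 for the brightest. Gnas was similar, with a second probe set at 246 in replicate 1, against 2561 and 1736 in replicates 2 and 3. Plagl1 had a second one at 284 in replicate 1, against 1003 and 759. The array does not show whether such probe sets read other transcripts of the gene or other parts of the same one.

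In other genes the split went the other way in replicate 1 or was largest in replicate 2. In Ndn no probe set above background in every sample lay over 1 from the brightest. A dimmer probe set of Rian was at -0.24 in replicate 1, against -1.56 for its brightest. For Ube3a a dimmer one was at 0.04, against -1.22. A dimmer probe set of Impact read 2104 in replicate 2, against 283 and 312 in replicates 1 and 3, while its brightest stayed within 1.31-fold. That of Igf2r with the lower signal read 2233 in replicate 2, against 799.7 and 1087. A dimmer one of Grb10 read 876 in replicate 2, against 193 and 226 in replicates 1 and 3, while its brightest stayed within 1.21-fold. In replicate 1 these probe sets of Impact, Igf2r and Grb10 also lay lower than their brightest, with differences of -1.536, -0.849 and -1.135. All 4 Kcnq1ot1 probe sets above background in every sample were lowest in replicate 1, with log2 differences from -1.99 to -1.02. All 5 such probe sets of Ndn, by contrast, lay between 0.05 and 0.56. Meg3 had 7 of 11 probe sets above background in every sample, with replicate 1 between -0.83 and 0.63. In replicate 2 a dimmer probe set of Kcnq1ot1 lay 1.35 above its brightest, and a dimmer one of Meg3 lay 1.30 above its own.

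**Figure D3:**
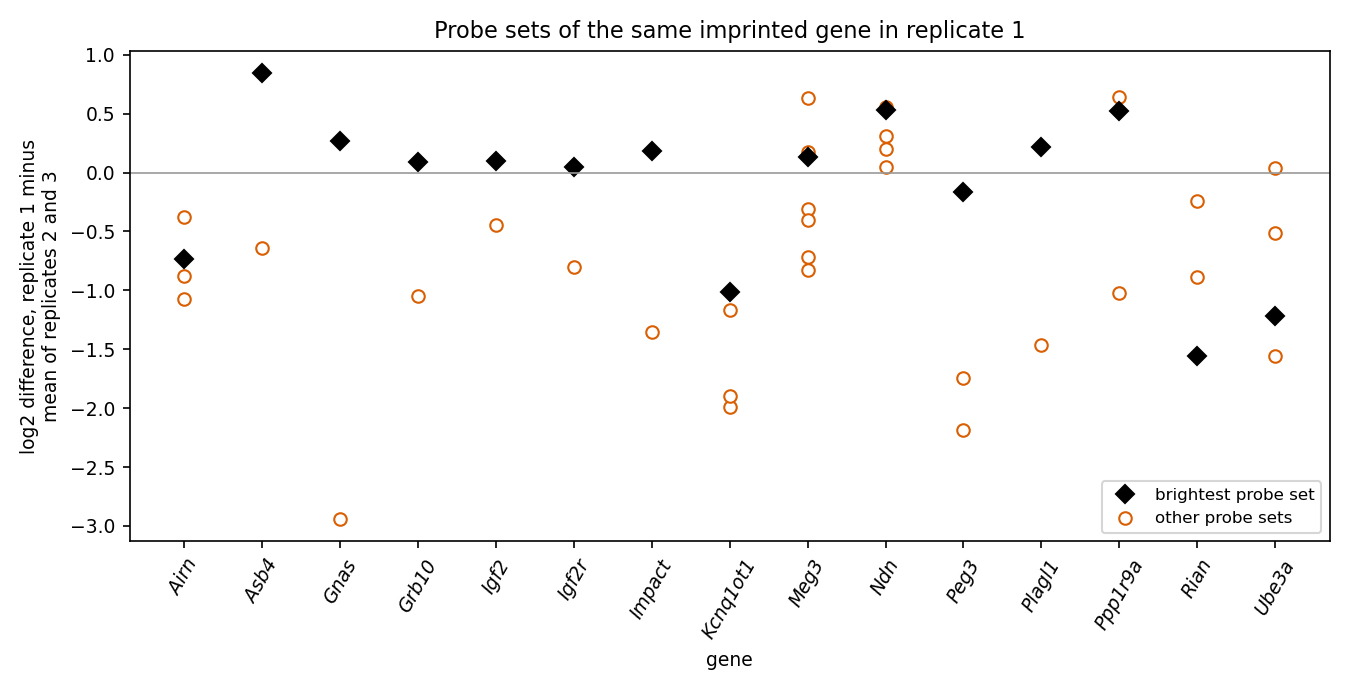
Log2 difference of replicate 1 from the mean of replicates 2 and 3 for each probe set above background in every sample, for the 15 imprinted genes with several of them; black diamonds are the brightest probe set of the gene and open circles the others. Open circles of Gnas (-2.94), Peg3, Plagl1, Impact, Grb10, Asb4 and Ppp1r9a lie at least 1 below their diamond, while those of Ndn lie near it. An open circle of Rian and another of Ube3a lie over 1 above their diamond.

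Across the 15 genes, 23 of 32 dimmer probe sets were lower in replicate 1 than the brightest of their gene on this scale, and 23 of 32 higher in replicate 2. The same held for 67.7% and 66.7% of 7722 such probe sets over all genes, so these shares lie close to those of the arrays as a whole. A split of over 1 on the log2 scale in some sample was found for 17 of 32 (53.1%), against 37.0% over all genes. In detection, 28 of 64 further probe sets of the 22 genes with several differed from the brightest, and no share over all genes is given for that count. The 3′ to 5′ ratios given above were also highest in replicate 1 for Actb and Gapdh, and lowest in replicate 2 for Actb and in replicate 3 for Gapdh. Their part in these differences was not tested.

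Probe sets with a high mean signal had the fewest large ranges. Of all 62 imprinted probe sets above background in every sample 27 had an over 2-fold range, where 26% of all annotated probe sets did. By mean signal there were 8 of 18 up to 1000, 13 of 19 from 1000 to 4000, 5 of 13 from 4000 to 16000 and 1 of 12 above 16000. Over all probe sets the shares were 35.1%, 29.1%, 19.2% and 7.0%. In the band from 1000 to 4000 the imprinted probe sets had a median log2 difference of -0.80 in replicate 1, where all probe sets had 0.18. Of the 19 probe sets there, several share a gene (Airn, Kcnq1ot1, Meg3 and Ube3a have more than 1 each), so they are not independent of each other. The plot of ranges by signal level shows these shares.

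**Figure D4:**
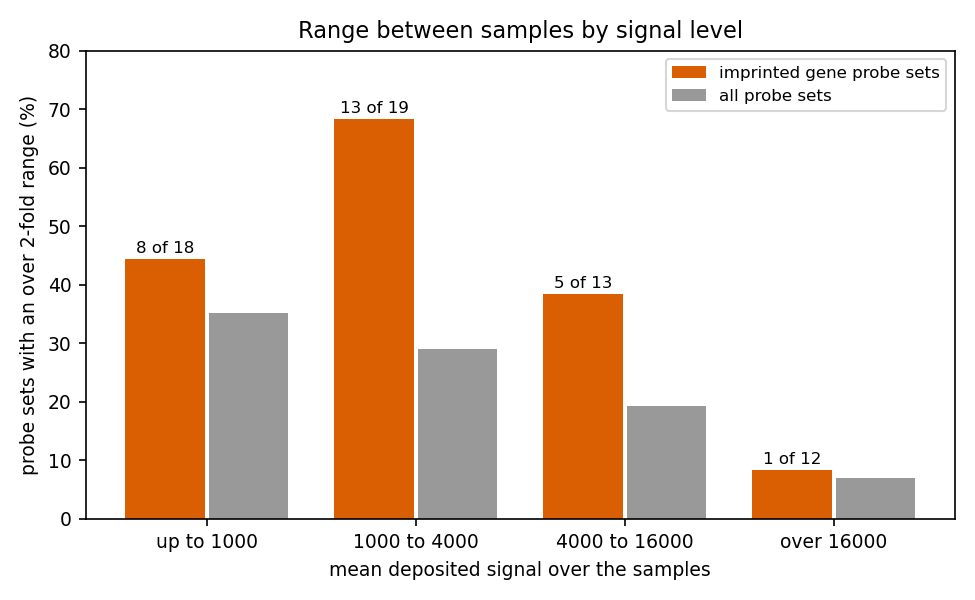
Percentage of probe sets with an over 2-fold range between the 3 samples, in 4 bands of mean deposited signal, for imprinted genes (orange, with counts) and all probe sets (grey), all above background in every sample. The share is highest for imprinted probe sets at 13 of 19 in the band from 1000 to 4000 and lowest, 1 of 12, above 16000.

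Medians by expressed allele and growth role depended on which probe sets were used. On the brightest ones, in replicate 1 the median log2 difference was 0.19 for 14 paternally and 0.11 for 12 maternally expressed genes, against 0.26 over all genes. In replicate 2 the medians were -0.22 and -0.18, against -0.21, and in replicate 3 they were 0.18 and 0.11, against -0.01. The 6 growth promoters had 0.16, -0.22 and 0.18 in replicates 1, 2 and 3, and the 3 growth inhibitors 0.05, -0.25 and 0.17. With the mean of all probe sets of a gene in place of the brightest, the promoters had -0.27, -0.07 and 0.40 in replicates 1, 2 and 3. The inhibitors then had -0.47, 0.82 and -0.34. On that mean the paternally expressed genes had -0.27, -0.07 and 0.27, and the maternally expressed ones -0.18, 0.17 and 0.03. No direction is therefore given for any class.

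Genes of 1 cluster did not always go together. In the Kcnq1ot1 cluster Cd81, Nap1l4 and Osbpl5 were highest in replicate 1, Cdkn1c in replicate 2 and Kcnq1ot1 in replicate 3 on their brightest probe sets. Kcnq1ot1 and Cdkn1c were both lowest in replicate 1, and a dimmer Kcnq1ot1 probe set was, like Cdkn1c, highest in replicate 2. In the Peg10 cluster Sgce, Ppp1r9a and Asb4 were each above the mean of the others in replicate 1, by 0.78, 0.52 and 0.84 on their brightest probe sets. So were 7975 of all 11020 genes above background in every sample, where the median was 0.26. Peg10 was near or below background in every sample and is not set against its neighbours. A dimmer probe set went the other way in replicate 1 for Ppp1r9a (-1.02) and Asb4 (-0.64). In the Dlk1 cluster the brightest probe set of Meg3 stayed within 1.12-fold and that of Rian ranged 3.76-fold. Their probe sets above background in every sample overlapped, however. Replicate 1 ran from -0.83 to 0.63 for Meg3 and from -1.56 to -0.24 for Rian. Replicate 2 ran from -0.37 to 1.19 for Meg3 and from -0.39 to 1.31 for Rian. Airn and Igf2r, which overlap in opposite orientation, were highest in replicate 3 on their brightest probe sets, but the 3 other Airn probe sets above background in every sample and the other one of Igf2r were highest in replicate 2.

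Genes that set or keep imprints were mostly present throughout, with 18 of 21 measured above background in every sample, where 60.6% of all genes were. Suz12, a Polycomb subunit, read 29369, 38813 and 42395 in replicates 1, 2 and 3, and Trim28, the corepressor that Zfp57 recruits, 29643, 26416 and 25385. The maintenance DNA methyltransferase Dnmt1 read 20232, 21229.9 and 17304, and its partner Uhrf1 20665, 11180.2 and 20249. Dppa3 and Tet3 were above background in no sample. Zfp57, the zinc finger protein that binds methylated imprint control regions, read 196 in replicate 1, against 1567 and 1098 in replicates 2 and 3, the largest range of this list among genes above background in every sample, followed by Tet2 (1735, 6164 and 3621) and Mbd3. Of the 18, 2 were over 2-fold lower in replicate 1, against 2.68% of all genes. The list's median log2 difference there was 0.21, with 12 of 18 higher. Over all genes above background in every sample the median was 0.26, with 7975 of 11020 higher.

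Around Igf2, the receptor gene Igf1r read 14329.5, 13402 and 14736 in replicates 1, 2 and 3 and the insulin receptor substrate gene Irs1 22722, 18479 and 18901, both close between samples. Igf2bp3, an RNA-binding protein named for its binding of Igf2 messenger RNA, read 29302, 20697 and 30242. Its relative Igf2bp1 read 626 in replicate 1, against 6947 and 4135 in replicates 2 and 3. Nnat and Ube3a are known from neurons, and of 9 nerve and glia genes measured 5 were above background in every sample, with a median log2 difference of -0.23 in replicate 1. The 9 summed to 12480.7, 8924.0 and 9656.2 signal units in replicates 1, 2 and 3. Erbb3 made up most of that sum, at 9777, 5572 and 6116. Erbb3 and Stmn2 were highest in replicate 1, and Elavl4, Nefl and Tubb3 lowest there. Igf2 and Dlk1 are abundant in fetal liver and muscle, whose markers were highest in replicate 1, and their log2 differences there were 0.10, with a sign that changed under other scalings (-0.06 without alignment), and 0.61. The part of other tissues in these values was not tested, and in tissue samples fewer cells of a type and less RNA per cell cannot be told apart.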

How the data were processed

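Per the labels' protocols, RNA purified with a Qiagen RNeasy kit from unpooled tubercles went through 2 rounds of aminoallyl amplification before biotin was attached. The deposited values are linear intensities, made with GCOS per the submitters' processing notes, and its version is not given in the sources used here. Each sample had a mean of 1500 after 2% trimming at either end, so the values had been scaled before deposit. No genome build is given for the arrays.

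Of 45101 probe sets 64 were controls. In the platform annotation 34945 had 1 symbol, 932 several and 9160 no symbol, and 34754 symbols were found in RefSeq with 0 changed. Signals under 1 were set to 1, log2 transformed and aligned on the median of the 21659 probe sets above background in every sample, where sample medians differed by 0.23, against 0.70 over all probe sets. Printed signals are as deposited, and folds, differences and SDs are after alignment. A fold against a sample below background is a lower bound set by that background. The gene's brightest probe set represents it.

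Replicate 3 against replicates 1 and 2, and each other sample alone, was tested with lmFit and eBayes of limma 3.58.1 (R 4.3.3), two-sided, with Benjamini-Hochberg adjustment, after the fit was tested on simulated data. Each p sets the lone sample against a spread that comes from the other pair and from pooling over probe sets. Python 3.11.15 with pandas 2.3.3 was used for the rest. Every gene on the list is accounted for: those above background in some sample have their signals given, the others are named. From other lists, the 4 with the highest mean signal, those above background in no sample and the 3 with the largest range could be named. Alternatives covered background, scaling, filters, probe set choice, variance trend and each sample left out. The genes, lists and tests were chosen with earlier results of these data known.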

Additional observations from a re-analysis of the deposited data

How the results depend on the processing

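With every probe set of a gene required, 14 of 38 imprinted genes were above background in every sample, with no share over all genes given. On the brightest probe set 30 were, and leaving out 1 sample gave 30 to 32. The number with an over 2-fold range, 9 of 30 with all samples, was between 1 and 8 when 1 sample was left out, lowest without replicate 1 (1) and then without replicate 2 (3). It was 6 without alignment and 13 with no filter on low values, settings for which no share over all genes is given. With only probe sets above background in every sample, limma called 1 probe set in the landmark contrast and 509 for replicate 1, of which 4 were of imprinted genes. With a variance trend it called 554 for replicate 1, 3 of them imprinted. The other settings of these contrasts called 0. With the mean of all probe sets of a gene, the replicate 1 median became -0.27 for paternally expressed genes, -0.27 for growth promoters and -0.47 for growth inhibitors. The growth inhibitors became 0.82 in replicate 2 and -0.34 in replicate 3. The maternally expressed genes became -0.18 in replicate 1 and 0.17 in replicate 2. The cause was not tested. The median over all imprinted genes also changed sign there, to -0.19 in replicate 1 and 0.16 in replicate 2. Meg3, Grb10, Gnas and Igf2, whose samples lie close, have differences whose sign changes with scaling or probe set choice. No paired analysis was possible because the samples form 1 group. With 1 residual degree of freedom and 3 arrays, small differences could not be called, and probe sets near background carry the least precise values.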

Other observations

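A further list of 26 genes reported as imprinted in the mouse, some only in the placenta or brain, had 22 measured. Of these, 15 were above background in every sample, where 60.6% of all genes were, 4 in some and 3 (Calcr, Slc22a2 and Th) in none. Gab1, an adaptor of receptor tyrosine kinases, read 21271, 17235 and 17378 in replicates 1, 2 and 3. Dcn, the matrix proteoglycan decorin, read 6244, 8488 and 7456 and Inpp5f, a phosphoinositide phosphatase, 5759.5, 4319 and 5932. The samples of each lay within 1.56-fold.

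An over 2-fold range was found for 3 of the 15, a share close to the 19.5% over all genes, and these 3 are given as values only. The amino acid transporter gene Slc38a4 read 4872 in replicate 2, against 11554 and 10670.5 in replicates 1 and 3, a log2 difference of -1.37. Sfmbt2, a Polycomb protein gene needed in the placenta, read 1021 in replicate 2, against 386 and 385. Ano1, a calcium-activated chloride channel gene, read 797 in replicate 2, against 283 and 294. The differences of Sfmbt2 and Ano1 were 1.22 and 1.28, and none of the 3 was tested.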
